A study of Mus musculus with 2 samples.

Results

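Mrc1-high C1q macrophages are tumour macrophages that carry transcripts of the complement subunits C1qa, C1qb and C1qc together with Mrc1, the mannose receptor gene. A barcode was taken as such a cell when it had at least 200 genes, under 15% mitochondrial UMIs (unique molecular identifiers, 1 per captured transcript), at least 5 C1q UMIs and at least 3 Mrc1 UMIs. It also had to have 0 UMIs of Cd3e, Cd79a and Krt18, which mark T cells, B cells and the epithelial tumour cells. The members were thus chosen by their own C1q, Mrc1, Cd3e, Cd79a and Krt18 UMIs, and these 7 genes support nothing below. The rule chose 298 of 11698 barcodes, or of 11350 after the filters on genes and mitochondrial UMIs. Of these, 183 came from the PBS library and 115 from the AKK library. The libraries hold sorted live CD45+ leukocytes from liver tumours of C57BL/6 mice kept on the MCD diet, which lacks methionine and choline, and implanted with luciferase-labelled RIL-175 hepatoma cells in the liver itself. The AKK group was fed 5e9 colony-forming units of the gut bacterium Akkermansia muciniphila and the control group PBS, in both cases from 2 weeks ahead of the diet, which itself ran 2 weeks before implantation. Feeding paused for 6 days after surgery and then went on to the end. Both groups thus share strain, diet, tumour line and surgery, and RIL-175 is an implanted line, so these tumours did not arise in the fatty liver. The number of mice behind each library is not given in the sources used.

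Each group is 1 library. The differences below therefore have no replicate check and no test, "higher" and "lower" describe these libraries, and each 95% interval reflects counting error and no spread between mice.

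C1q-expressing macrophages are mature tissue macrophages. C1q opens the classical complement pathway and helps macrophages take up dying cells, and the mannose receptor binds and internalises glycoproteins and is commonly used as a marker of alternatively activated macrophages. In tumours such cells are known for clearing debris and remodelling matrix, and, depending on the signals they receive, for presenting antigen or drawing in other leukocytes. Type I interferons, made after sensing of nucleic acids, and interferon-gamma, made by T and NK cells, induce overlapping but distinct gene sets in them.

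The markers of macrophages were high in both libraries. All 12 macrophage markers checked were above 50 CPM (counts of UMIs per 1000000 UMIs summed over the population). The 12 summed to 9895 CPM in AKK and 13749 in PBS against 126 and 232 in T cells (at least 2 Cd3e UMIs), the reference for free RNA. For genes that T cells transcribe themselves, here and below, this reference does not measure free RNA. C1qa, C1qb, C1qc and Mrc1, which the rule used, are among the 12, so these sums were in part fixed by the rule. Markers that the rule did not use include the growth factor receptor gene Csf1r, at 448 CPM in AKK and 555 in PBS cells and Adgre1, which encodes F4/80, at 115 and 168. The genes the rule used stood, as a description, at medians of 48 C1q UMIs per cell in AKK and 65 in PBS (0 in T cells of both libraries) and at 10 and 16 Mrc1 UMIs. Near the thresholds, 10 AKK and 20 PBS C1q macrophages had exactly 3 Mrc1 UMIs, just inside, and 18 and 20 had exactly 2, just outside. Among barcodes with at least 3 Mrc1 UMIs, 1 AKK and 7 PBS barcodes had exactly 5 C1q UMIs, just inside, and 0 and 6 had exactly 4. Markers of Kupffer cells, the resident macrophages of the liver, were low in absolute terms but above the references. The 7 genes summed to 23.7 CPM in AKK and 43.0 in PBS, against 0.798 and 0.282 in T cells. C1q macrophages without Mrc1 UMIs held 8.03 and 4.47 CPM. The defining genes Timd4, Marco and Vsig4 were at 0 UMIs in AKK cells, whereas in PBS cells only Cd207 was at 0. Hepatocyte markers summed to 0.474 CPM in AKK and 2.13 in PBS, with albumin at 0 in both.

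Depth and other cells' RNA differed between the libraries. The cells had medians of 16802 UMIs and 4188 genes in AKK and 20577 UMIs and 4339 genes in PBS, with 2.55% and 2.84% mitochondrial UMIs. The AKK cells held 2111127 UMIs in all and the PBS cells 3763436, and 8 barcode sequences occur in both matrices. Allowing any Krt18 UMI would have added many more PBS cells: of barcodes past the C1q and Mrc1 thresholds, 42.9% had Krt18 in PBS (154 of 359, 90 of them with exactly 1 UMI) and 20.4% in AKK (37 of 181, 30 with 1). T cells had Krt18 in 16.2% and 9.82% of barcodes. In addition 61 PBS cells (33.3%) and 12 AKK cells (10.4%) carried enough S100a8, S100a9 and Csf3r to meet a neutrophil gate. The 9 neutrophil markers summed to 1378 CPM in AKK and 2794 in PBS, against 2317 and 2234 in T cells, and the 7 plasma cell markers to 1638 CPM in AKK and 623 in PBS, against 1013 and 296. T cell, NK and B cell markers each summed to at most 71.5 CPM. Markers of conventional dendritic cells were close between the libraries, at 816 CPM in AKK and 790.5 in PBS for 8 type 2 genes and 294 CPM in AKK and 318 in PBS for 7 type 1 genes. No doublets were removed, and the barcodes with the highest doublet scores included 1 AKK and 6 PBS cells of the population. Beside the results below stand the values with Krt18 allowed or without the neutrophil-gate cells that differ most from them, and the part of these sources in the other results was not tested.

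Mrc1-high macrophages were a smaller part of the sorted leukocytes in the AKK library. They made up 1.76% of kept barcodes in AKK (1.46 to 2.11) and 3.79% in PBS (3.27 to 4.36), a difference of -2.02 percentage points (-2.67 to -1.41). With every barcode thinned at random to 5000 UMIs the shares were 1.99% and 4.60%. The size of the difference depended on the rule: it was -3.85 points with Krt18 allowed (2.21% against 6.06%) and -0.94 without the neutrophil-gate cells. Because these are shares of a sort, fewer macrophages and more of other leukocytes cannot be told apart.

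The make-up of the C1q macrophages differed as well. Mrc1-high cells were 44.1% of AKK C1q macrophages (115 of 261, 37.9 to 50.3) and 60% of PBS ones (183 of 305, 54.3 to 65.5), which is -15.9 points (-23.9 to -7.69). After thinning the shares were 33.5% and 50.7%, and over all settings run the difference lay between -19.7 and -12.6 points. Mrc1-negative cells were 34.1% in AKK and 23.6% in PBS, a difference of 10.5 points (3.02 to 17.9). Cells with 1 or 2 Mrc1 UMIs were 21.8% and 16.4%, with an interval of the difference from -1.03 to 12 points. By raw Mrc1 UMIs, which the rule used and which depend on depth, 37 PBS and 31 AKK cells had 3 to 5, 54 and 52 had 6 to 15, and 92 and 32 had 16 or more. These counts are a description, and cells with 16 or more also had more UMIs in all, with medians of 23230 in PBS and 21192 in AKK. The pooled Mrc1 level, 798 CPM in AKK and 1234 in PBS cells (ENSMUSG00000026712, chr2:14229392-14332057 in GENCODE M21 on GRCm38, as for the other gene positions), is a description, since the rule used it.

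**Figure D1:**
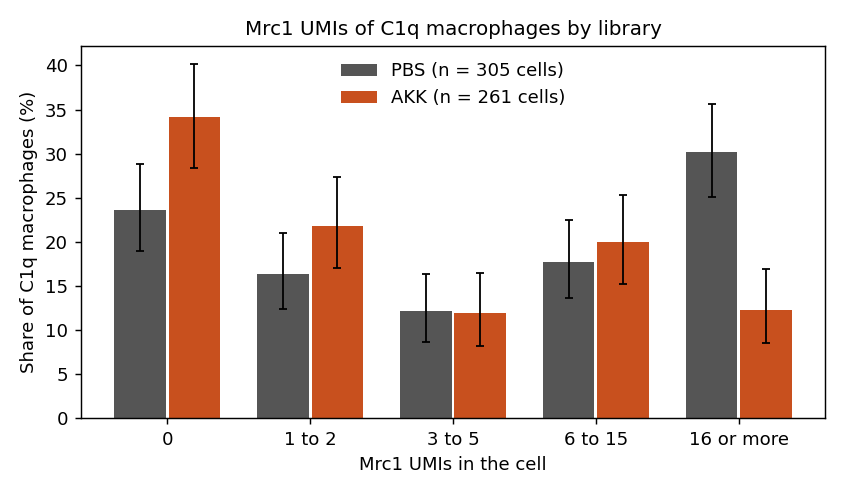
Share of C1q macrophages (%, vertical axis) by the number of Mrc1 UMIs in the cell (horizontal axis), for 305 PBS cells (grey) and 261 AKK cells (orange). Bars start at 0 and error bars are exact 95% binomial intervals; the cells with 16 or more Mrc1 UMIs are 92 in PBS and 32 in AKK.

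Within each library, Mrc1-high macrophages differed from Mrc1-negative C1q macrophages in a set of tissue macrophage genes. Of 9286 genes measured, 64 (0.689%) were past 2-fold higher and 38 (0.409%) past 2-fold lower in the Mrc1-high cells of both libraries; with gates on thinned UMIs, the counts were 38 and 16 of 5627 genes. These ratios come from cells of the same library, and the gates differ in Mrc1 UMIs, which also depend on depth. Vcam1, an adhesion molecule gene that also marks some resident macrophages (ENSMUSG00000027962, chr3:116109949-116129688), stood at 273 against 5.21 CPM in PBS, a ratio of 52.4 (25.3 to 131), and at 53.1 against 3.21 in AKK, a ratio of 16.5 (6.27 to 61.7). Igf1, which encodes a growth factor, had ratios of 15.9 (8.29 to 35.0) and 7.90 (3.22 to 25.1). The chemokine gene Ccl8 had ratios of 12.3 (5.19 to 38.5) and 6.97 (4.25 to 12.2). All 3 genes were far higher in the Mrc1-high cells of both libraries, also with gates on thinned UMIs, where the lowest log2 ratio was 1.09. With barcodes carrying other lineages' UMIs left out, however, the AKK log2 ratio of Ccl8 was 0.10 in place of 2.43 and that of Igf1 0.79 in place of 2.03. The prostaglandin D synthase gene Hpgds had ratios of 6.84 (4.50 to 10.9) in PBS and 7.22 (4.10 to 13.8) in AKK. The iron exporter gene Slc40a1 had ratios of 5.50 (2.91 to 11.7) and 7.31 (2.97 to 23.3). These genes had smaller ratios than Vcam1. The adhesion molecule gene Cadm1 stood at 4.67 (3.50 to 6.36) and 10.4 (6.27 to 18.4). Rgl1, a regulator of Ral GTPases, followed at 4.49 (3.63 to 5.60) and 4.25 (2.95 to 6.32). With gates on thinned UMIs the AKK log2 ratios of Slc40a1, Rgl1, Hpgds and Cadm1 were smaller, at 0.41, 0.64, 1.10 and 1.03, in place of 1.93, 1.90, 2.38 and 2.95. Tmem26 had 135 UMIs against 3 in PBS and 33 against 0 in AKK. Kitl, the stem cell factor gene, and Negr1 also led by rule, but 1 cell held 98.8% of the PBS and 91.8% of the AKK Negr1 UMIs, and 1 AKK cell 80% of the Kitl UMIs.

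Genes of lipid transport and some of dead-cell uptake lay on the same side. Apoe, the apolipoprotein E gene, was at 5416 against 1307 CPM in PBS, a ratio of 4.14 (3.95 to 4.35), and at 3181 against 1389 in AKK, a ratio of 2.29 (2.17 to 2.42). The efferocytosis receptor gene Mertk had ratios of 4.68 (3.83 to 5.76) and 2.72 (2.17 to 3.44), and the selenoprotein gene Selenop of 3.47 (2.78 to 4.37) and 2.82 (2.03 to 3.99). By list, the resident and Kupffer macrophage genes had median log2 ratios of 1.09 in PBS and 1.38 in AKK, and the lipid-associated genes 0.75 and 0.71. The efferocytosis genes had medians of 0.33 and 0.62, with 9 of 16 higher and 3 lower in both libraries, and 1 past 2-fold higher in both. For lysosomal genes, 31 of 35 were higher in both libraries (medians 0.39 and 0.38). The median over all genes was 0.03 in PBS and 0.02 in AKK. The share of all genes that were higher, or lower, in both libraries was not counted. The counts of list members on 1 side in both libraries are therefore descriptions.

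Monocyte genes were lower in the Mrc1-high cells of both libraries for 11 of 19 list members (medians -0.84 in PBS and -0.27 in AKK). Plac8, a gene of fresh monocytes, was at 213 against 1079 CPM in PBS and 346 against 759.6 in AKK, and Ly6c2 at 32.4 against 135 and 71.1 against 94.8. T cells held 451 CPM of Plac8 in PBS and 347 in AKK, so its level in Mrc1-high cells was at or under that of T cells. How much of either level is free RNA was not tested. Plcb1, a phospholipase C gene, had ratios of 0.325 (0.292 to 0.363) and 0.297 (0.247 to 0.355). Prg4, which encodes lubricin, had only 3 and 2 UMIs in Mrc1-high cells against 260 and 52 in Mrc1-negative cells of PBS and AKK, and Selp, the P-selectin gene, 6 and 2 against 57 and 20. The same rule named Ptgis, Efnb2, Itgae, Rnf144a, Ctnnd2, Cstdc4 and Ltbp1, all at 41.7 CPM or lower in PBS Mrc1-negative cells except Cstdc4, at 81.1, and Ltbp1, at 70.0. Several of these differences were not seen in PBS with gates on thinned UMIs, where the log2 ratio was 0 for Prg4 and Selp, 0.41 for Ltbp1 and 0.72 for Efnb2. Hypoxia and glycolysis genes were lower in both libraries for 20 of 25 (medians -0.22 and -0.34). This count and that of the monocyte list are descriptions too, without the share over all genes.

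**Figure D2:**
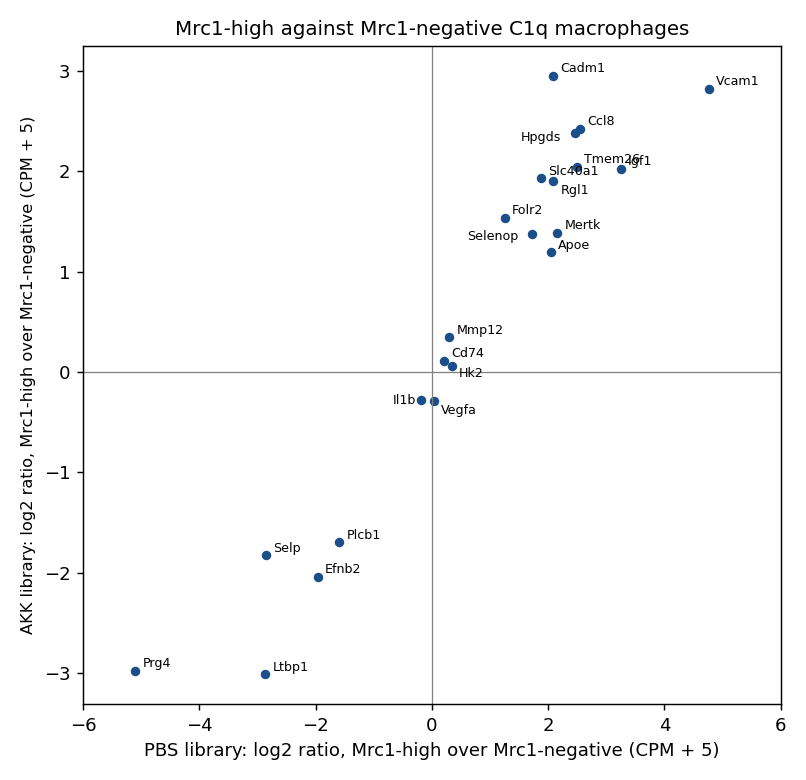
Log2 ratio (CPM + 5) of Mrc1-high over Mrc1-negative C1q macrophages in the PBS library (horizontal axis) and the AKK library (vertical axis); each point is a gene. Vcam1, Igf1, Ccl8 and Hpgds lie at the upper right in both libraries and Prg4 and Ltbp1 at the lower left, while Cd74, Mmp12 and Il1b lie near 0.

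Between the libraries, most genes of the Mrc1-high macrophages were close. Of 10602 genes with at least 20 UMIs over both, 114 (1.08%) were past 2-fold higher in AKK cells and 203 (1.91%) past 2-fold lower, on the scale of log2(CPM + 5). The log2 ratio was above 0 for 60% and below 0 for 40% of genes, the 95% interval of the ratio lay wholly above 1 for 20.7% and wholly below 1 for 12.3%, and the median log2 ratio was 0.09. Each list below is read against those shares. With Krt18 allowed, 544 genes were past 2-fold lower, and without the neutrophil-gate cells 176 were past 2-fold higher.

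**Figure D3:**
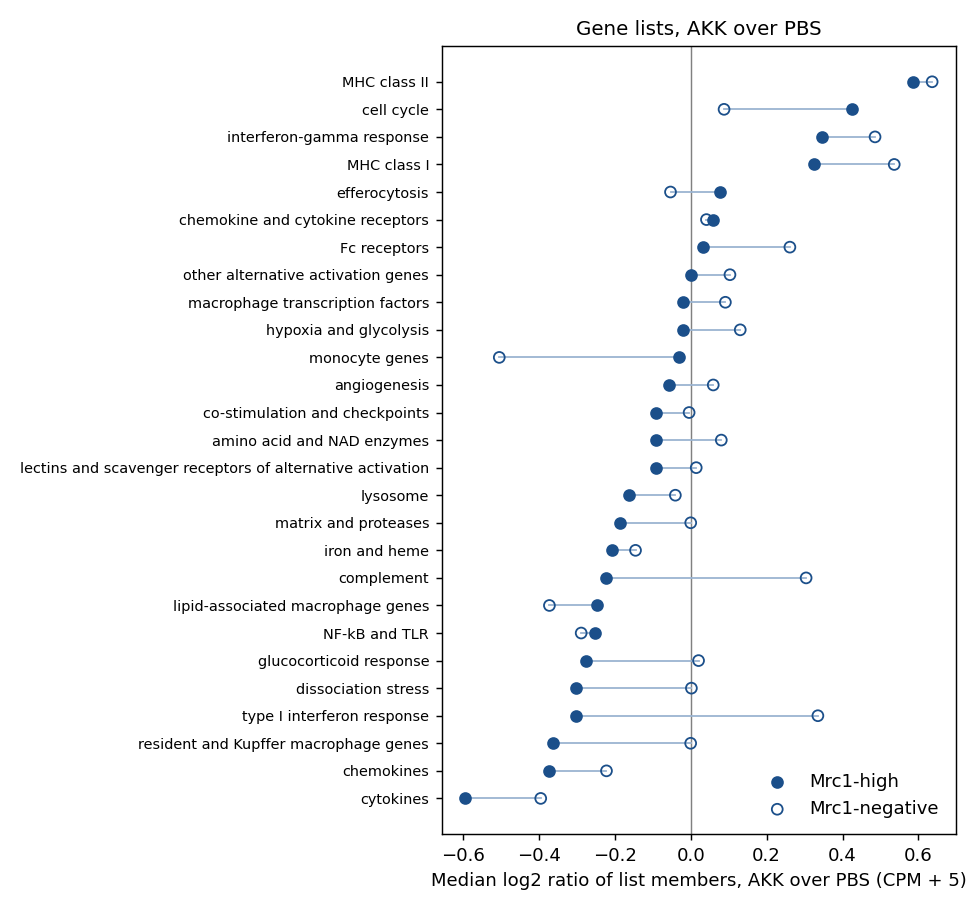
Median log2 ratio (CPM + 5), AKK over PBS, of the measured members of 27 gene lists in Mrc1-high (filled) and Mrc1-negative (open) C1q macrophages. The lists of MHC class II, MHC class I and interferon-gamma response lie right of 0 in both, and the type I interferon list lies at -0.30 in Mrc1-high and 0.34 in Mrc1-negative cells.

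Antiviral genes were lower in the AKK cells. Of the type I interferon response list, 6 were past 2-fold lower (1.91% of all genes were) and 0 past 2-fold higher. In all, 21 of 27 measured members had a log2 ratio below 0 (40% of all genes did) and the median was -0.30. Of the 27 members, 14 in AKK and 18 in PBS stood above 2 times their level in T cells. Mx1 and Mx2 were not analysed here. Rsad2, which encodes the antiviral enzyme viperin (ENSMUSG00000020641, chr12:26442746-26456452), stood at 50.7 CPM in AKK and 561 in PBS cells, a ratio of 0.0903 (0.0737 to 0.110). Ifih1, the gene of the double-stranded RNA sensor MDA5, was at 179.5 and 771 CPM, a ratio of 0.233 (0.209 to 0.259). Oasl1, of the oligoadenylate synthetase-like family, was at 174 and 726 CPM, a ratio of 0.240 (0.215 to 0.268). T cells held at most 63.6 CPM of any of the 3, below the levels in PBS macrophages. How much RNA of other cells adds to those levels was not tested. All 3 genes were past 2-fold lower under every setting run. Isg15, a ubiquitin-like protein gene, was at 90.5 against 255 CPM (ratio 0.355, 0.303 to 0.416). The translation inhibitor gene Ifit1 was at 8.05 against 36.4 (ratio 0.221, 0.125 to 0.367). The related Ifit2 was at 33.6 against 95.9 (ratio 0.351, 0.268 to 0.453), but its log2 ratio was -0.12 with gates on thinned UMIs and -0.87 with Krt18 allowed. Other members of the same list were close, among them Oas1a (36.5 and 36.4), Bst2 (106 and 108) and Irf7 (44.5 and 55.8), and the nucleic acid sensor gene Zbp1 was higher (56.8 and 33.2). Ifnb1, the interferon-beta gene itself, had 5 UMIs in AKK cells (2.37 CPM) and 121 in PBS cells (32.2 CPM), a ratio of 0.0737 (0.0235 to 0.177).

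More PBS than AKK cells carried these transcripts. After thinning to 5000 UMIs, which kept 111 AKK and 162 PBS cells, 14.4% of AKK and 46.3% of PBS cells had an Rsad2 UMI (unthinned 27.8% and 60.1%), against 5.99% and 6.71% of T cells. For Oasl1 the thinned shares were 27.9% of AKK and 71.0% of PBS cells (unthinned 52.2% and 85.2%, T cells 3.56% and 2.83%). Mrc1-negative macrophages shared this difference in some genes only. There Rsad2 was at 184 and 356 CPM and Ifih1 at 152 and 589 in AKK and PBS, again lower in AKK, but Ifit1 at 67.4 and 29.8 and Ifit2 at 49.8 and 24.6, higher in AKK. The difference between the gates was not tested.

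Some of these genes carry, upstream of their start, the element through which type I interferon signalling is known to act. The 250 bases before the RefSeq start (GRCm38.p6) are printed for 4 genes that were lower in AKK and hold a match, each 5′ to 3′ on the gene's strand. Capitals mark the interferon-stimulated response element (ISRE), searched on both strands as GAAA, any 2 bases and GAAA:
Rsad2 (chr12:26456453-26456702, minus strand): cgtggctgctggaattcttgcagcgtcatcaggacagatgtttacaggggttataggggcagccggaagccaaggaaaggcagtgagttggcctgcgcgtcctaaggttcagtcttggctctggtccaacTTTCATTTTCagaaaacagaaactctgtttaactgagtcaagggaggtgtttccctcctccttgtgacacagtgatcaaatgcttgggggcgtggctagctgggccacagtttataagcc
Isg15 (chr4:156200819-156201068, minus strand): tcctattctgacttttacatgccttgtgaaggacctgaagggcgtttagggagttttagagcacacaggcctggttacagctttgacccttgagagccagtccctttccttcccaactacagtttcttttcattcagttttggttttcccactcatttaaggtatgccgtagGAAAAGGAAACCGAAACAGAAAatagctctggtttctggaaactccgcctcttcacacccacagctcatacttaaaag
Ifit1 (chr19:34640639-34640888, plus strand): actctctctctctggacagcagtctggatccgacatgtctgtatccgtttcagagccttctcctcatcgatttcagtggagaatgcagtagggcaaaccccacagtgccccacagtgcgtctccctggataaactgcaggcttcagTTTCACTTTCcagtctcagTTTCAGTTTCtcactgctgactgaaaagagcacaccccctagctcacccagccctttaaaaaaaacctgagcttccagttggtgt
Cxcl10 (chr5:92348890-92349139, minus strand): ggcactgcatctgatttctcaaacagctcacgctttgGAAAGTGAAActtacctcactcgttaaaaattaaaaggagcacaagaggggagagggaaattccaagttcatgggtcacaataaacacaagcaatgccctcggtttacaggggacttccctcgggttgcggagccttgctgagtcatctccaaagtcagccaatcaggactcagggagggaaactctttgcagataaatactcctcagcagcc
The windows end at the base before the RefSeq start, and the last 18 bases of that of Ifit1 lie within the gene as GENCODE draws it. The ISRE match ends 110 bases before the start in Rsad2 and 203 in Cxcl10, Ifit1 has 2 matches and the 3 matches of Isg15 overlap each other. A match is a sequence description and does not show binding. Of 32851 such windows, 2.98% hold a match. It was present in 9 of the 21 measured type I list genes with a promoter entry and in 9 of 15 of the interferon-gamma list. The matches did not sort the genes by direction: 6 of the 9 type I genes with a match and 11 of the 12 without one had a log2 ratio below 0, and so had 2 of the 9 interferon-gamma genes with a match. Ifih1 and Oasl1 had no match in their windows, which says only that those letters are not there. The other motifs searched (both strands) were GAS as TTC, any 3 bases and GAA, AP-1 as TGANTCA, ETS as GAGGAAG and the kB site. They were held by 7.02%, 6.75%, 10.6% and 7.25% of windows. The AP-1 motif occurs once each in Rsad2 and Cxcl10. The kB site has 3 matches in Cxcl10, 2 in Oasl1 and 2 in H2-Aa, some of them overlapping, and ETS has 1 each in Ifih1 and Tnf.

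Inflammatory cytokine genes were lower too. Of the cytokine list 19 of 22 members had a log2 ratio below 0, 7 of them past 2-fold, and 0 were past 2-fold higher, with a median of -0.59. Tnf, which encodes the tumour necrosis factor, stood at 165 CPM in AKK and 549.5 in PBS cells, a ratio of 0.300 (0.267 to 0.336). Il1a, an alarmin gene, was at 227 and 658 CPM (ratio 0.345, 0.312 to 0.381). The anti-inflammatory Il10 was at 46.4 and 129 (ratio 0.359, 0.286 to 0.447), so that cytokines of opposite roles lay on the same side. With Krt18 allowed, Tnf stayed past 2-fold lower (log2 ratio -1.30), whereas Il1a (-0.92) and Il10 (-0.93) did not. Il6 (0.521), Il23a (0.299), Lif (0.328) and the macrophage growth factor gene Csf1 (0.497) had ratios below 1 as well. Il12b was at 6.63 and 47.3 CPM, but 1 cell held 92.9% of its AKK and 1 cell 34.8% of its PBS UMIs, and its log2 ratio was -0.20 without the neutrophil-gate cells. Il1b, at 2538 and 2869 CPM, was close to level (0.885), and its log2 ratio was 0.25 with Krt18 allowed. With Krt18 allowed the cytokine median was -0.25.

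Chemokine genes lay on both sides. Of 20 measured, 8 had a log2 ratio above 0 and 12 below, with 2 past 2-fold higher and 6 past 2-fold lower (median -0.37, but 0.04 with Krt18 allowed and -0.50 without the neutrophil-gate cells). Ccl4, which attracts T cells and monocytes, stood at 834 CPM in AKK and 3109 in PBS cells, a ratio of 0.268 (0.255 to 0.282). Ccl5, which attracts T cells, was at 92.4 and 464 (ratio 0.199, 0.171 to 0.231), but T cells held 1556 and 1727 CPM of it. Ccl3, a close relative of Ccl4, was nearer to level at 497 and 843 CPM (ratio 0.590, 0.549 to 0.633). The monocyte attractants Ccl2 and Ccl7 had ratios of 0.309 (0.271 to 0.351) and 0.294 (0.242 to 0.356). Cxcl10, a CXCR3 ligand, was at 126 and 377 CPM (ratio 0.333, 0.291 to 0.380). Of these, Ccl4 stayed past 2-fold lower with Krt18 allowed (log2 ratio -1.49), whereas Ccl2 (-0.85), Ccl7 (-0.74) and Cxcl10 (-0.82) did not. The neutrophil attractants were nearer to level in Cxcl2 (5107 and 6411 CPM) and lower in Cxcl1 (212 and 517).

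Cxcl9, the other main CXCR3 ligand and a known interferon-gamma target, lay on the opposite side from Cxcl10. The gene (ENSMUSG00000029417, chr5:92321347-92328079) stood at 278 CPM in AKK and 52.1 in PBS cells, a ratio of 5.33 (4.53 to 6.30). T cells held 4.92 and 0.565 CPM. Its transcripts came from a minority of cells: 18% of AKK and 11.7% of PBS cells had a UMI after thinning (unthinned 26.1% and 18%), and 1 cell held 18.1% of the AKK and 27.6% of the PBS UMIs. The log2 ratio was 2.31, and it was 1.14 with Krt18 allowed and 1.28 with gates on thinned UMIs. Some chemokines of Mrc1-high macrophages were higher in AKK too. The eosinophil attractant Ccl24 was at 1224 and 860.4 CPM (ratio 1.42, 1.35 to 1.5). Ccl8 was at 95.2 and 46.0 (ratio 2.07, 1.68 to 2.55), and the platelet factor gene Pf4 at 554 and 309.6 (ratio 1.79, 1.65 to 1.94). The CCR4 ligand Ccl17 was at 91.4 and 33.7, with 42.5% and 52.0% of UMIs in 1 cell and a log2 ratio of -0.92 with gates on thinned UMIs. Cxcl11 was not analysed here.

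**Figure D4:**
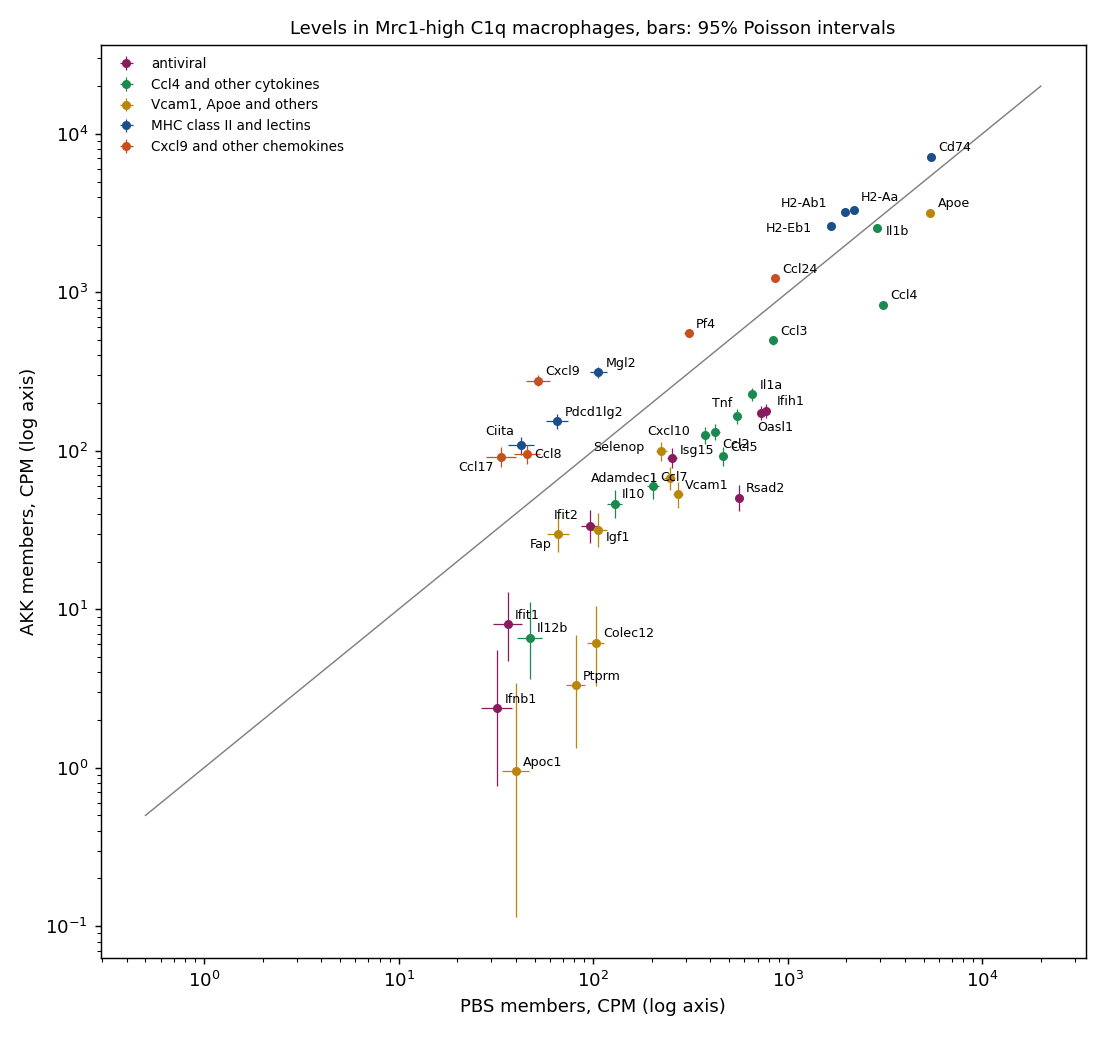
Pooled level of named genes in Mrc1-high macrophages of the PBS library (horizontal axis, CPM, log scale) and the AKK library (vertical axis, CPM, log scale), with 95% Poisson intervals and the line of equal levels. Antiviral genes, Ccl4 and Tnf lie below the line, and MHC class II genes, Mgl2 and Cxcl9 above it.

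The interferon-gamma list lay mostly higher in the AKK cells. Of 23 measured members 16 had a log2 ratio above 0 (60% of all genes did) and 12 an interval wholly above 1 (20.7% of all genes did), with a median of 0.35. Ciita, the master regulator of MHC class II genes, was at 108 and 42.8 CPM (ratio 2.52, 2.05 to 3.11). Samhd1, which encodes a nucleotide hydrolase, was at 553 and 282 (ratio 1.96, 1.80 to 2.13). The GTPase gene Gbp2 was at 126 and 77.1 (ratio 1.64, 1.38 to 1.94). The transcription factor gene Irf8 was at 269 and 210.2. The members farthest below were Gbp5, another guanylate-binding protein, at 21.8 and 111 CPM, and Cxcl10, described above. Over all settings run, the log2 ratio of Gbp5 lay between -2.3 and -0.57. That of Gbp2 lay between 0.16 and 0.76, of Samhd1 between 0.38 and 1.40 and of Ciita between 1.10 and 1.68. Nos2, the inducible nitric oxide synthase gene (37.9 and 61.1), and Cd274, which encodes PD-L1 (333 and 499.5), were lower as well. Only 5 of the 23 members in AKK and 7 in PBS stood above 2 times their level in T cells, and the part of free RNA in the others was not tested. Mrc1-negative macrophages had a median of 0.49.

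Genes of MHC class II, the molecules that display peptides to helper T cells, were higher in AKK cells almost throughout. Of 12 members 11 had a log2 ratio above 0 and 10 an interval wholly above 1, with a median of 0.59. H2-Aa stood at 3328 CPM in AKK and 2184 in PBS cells (ratio 1.52, 1.48 to 1.57). H2-Ab1, its partner chain gene, was at 3195 and 1980.4 (ratio 1.61, 1.56 to 1.67), and H2-Eb1 at 2606 and 1666 (ratio 1.56, 1.51 to 1.62). The invariant chain gene Cd74 was at 7166 and 5458 (ratio 1.31, 1.29 to 1.34). Most cells of both libraries carried the transcripts, with H2-Aa in 97.3% of AKK and 89.5% of PBS cells after thinning (unthinned 98.3% and 96.2%, T cells 21.7% and 20.5%). T cells held 215 and 108 CPM of H2-Aa. The median was 0.96 with Krt18 allowed, 0.45 with barcodes carrying other lineages' UMIs left out and 0.64 in Mrc1-negative macrophages. MHC class I genes were also higher, for 19 of 21 members (median 0.33), with H2-K1 at 1586 and 1222 CPM and the peptide transporter Tap1 at 109 and 84.2, but 0 members in AKK and 1 in PBS exceeded 2 times the T cell level.

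The promoters of class II genes are known for a CCAAT-containing Y-box that works with neighbouring elements under Ciita. It is shown in capitals (CCAAT, both strands) in the 250 bases before the start of 2 of the genes that were higher:
H2-Aa (chr17:34287824-34288073, minus strand): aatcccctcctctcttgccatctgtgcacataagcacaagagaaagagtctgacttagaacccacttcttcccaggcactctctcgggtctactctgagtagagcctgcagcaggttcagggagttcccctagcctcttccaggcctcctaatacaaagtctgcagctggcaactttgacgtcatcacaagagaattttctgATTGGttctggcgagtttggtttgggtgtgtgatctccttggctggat
H2-Eb1 (chr17:34305617-34305866, plus strand): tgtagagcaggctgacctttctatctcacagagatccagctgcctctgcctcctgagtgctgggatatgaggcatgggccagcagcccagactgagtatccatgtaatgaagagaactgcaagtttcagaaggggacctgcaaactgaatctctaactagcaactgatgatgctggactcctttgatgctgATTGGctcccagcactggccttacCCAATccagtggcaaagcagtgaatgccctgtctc
A CCAAT match was present in 8 of the 9 class II list genes with a promoter entry and in 33.9% of all windows, so its presence is common. In H2-Aa it lies 43 bases before the start, and H2-Eb1 has 2 matches, at 54 and 30 bases.

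Alternative activation genes lay on both sides. Of the lectins and scavenger receptors 6 were higher and 8 lower of 14 measured (median -0.09, and 0.33 with Krt18 allowed). Mrc1, which the rule used, is among these 8 and enters the median, so the list is in part a description. Of the other alternative activation genes 8 were higher and 7 lower of 15 (median 0.00, and 0.39 with Krt18 allowed). Mgl2, which encodes the galactose-type lectin CD301b, was at 313 CPM in AKK and 106 in PBS cells, a ratio of 2.95 (2.60 to 3.34), and was found in 44.1% of AKK and 21.6% of PBS cells after thinning (unthinned 62.6% and 38.8%, T cells 2.27% and 0.707%). Mgl2 stayed past 2-fold higher under every setting run. The related Clec10a was at 36 and 22.1 CPM. Pdcd1lg2, the gene of PD-L2, stood at 154 and 65.4 (ratio 2.36, 1.99 to 2.79), with a log2 ratio of 0.88 with gates on thinned UMIs. Arg1, the arginase gene, was level at 1945 and 1944 CPM (ratio 1.0, 0.963 to 1.04), and the scavenger receptor gene Msr1 at 456 and 535. The chitinase-like Chil3 was lower, at 101 and 422 CPM (ratio 0.240, 0.207 to 0.277), and its log2 ratio was -0.55 with Krt18 allowed in place of -2.01. Clec7a was not analysed here.

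Vcam1 and some other genes named for their size of difference were lower in the AKK cells. Vcam1 was at 53.1 CPM in AKK and 273 in PBS cells, a ratio of 0.194 (0.159 to 0.236). Adamdec1, a secreted metalloprotease gene, was at 67.3 and 248 (ratio 0.271, 0.225 to 0.323), and Fap, the fibroblast activation protein gene, at 29.8 and 66.2 (ratio 0.451, 0.337 to 0.597). The scavenger receptor Colec12 stood at 6.16 and 103 (ratio 0.0596, 0.0314 to 0.103) and the receptor phosphatase Ptprm at 3.32 and 81.6 (ratio 0.0406, 0.0162 to 0.0848), with 28.5% and 24.8% of the PBS UMIs in 1 cell. The 7 fibroblast and stellate cell markers summed to 1.89 CPM in AKK and 2.39 in PBS cells, against 2.66 and 2.26 in T cells. Of these markers, Col1a1 and Col3a1 had 0 UMIs in both libraries, and others were detected. Without the neutrophil-gate cells the log2 ratio of Vcam1 was -2.14, close to its -2.26, but that of Adamdec1 was -0.38 in place of -1.81, of Colec12 -0.73 in place of -3.28 and of Ptprm -0.03 in place of -3.38. With barcodes carrying other lineages' UMIs left out, which leaves 45 AKK and 51 PBS cells, Adamdec1 was at 0.91.

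Counted per cell, the 5 genes Vcam1, Adamdec1, Colec12, Ptprm and Fap, a set put together after their values were seen, gave at least 1 UMI in 28 of 111 thinned AKK cells (25.2%) and 70 of 162 PBS cells (43.2%). The top 16 PBS cells held 61.6% of the set's UMIs there, and the top 11 AKK cells 74.7%. The 53 PBS cells with at least 2 UMIs of the set had more Ccl8 (155 against 9.17 CPM in the others, on thinned UMIs), Apoc1 (121 against 5.50) and Cadm1 (438 against 64.2), and less Chil3 (113 against 514) and Plcb1 (75.5 against 308), by a ranking on these same values. In the 17 AKK cells with at least 2, Ccl8 was at 294 against 38.3 CPM and Cadm1 at 235 against 66.0. Plcb1 was lower there as in PBS, with an AKK ratio of 0.187 (0.0222 to 0.708). So was the chemokine gene Cxcl3, at 0.369 (0.165 to 0.721) in AKK and 0.189 (0.111 to 0.302) in PBS. Chil3 had an AKK ratio of 0.361, with an interval that spans 1 (0.0717 to 1.12). Some other genes ranked in PBS did not differ alike in AKK. Cd72, with only 3 UMIs in these AKK cells, had a ratio of 0.592 (0.115 to 1.92) against 4.66 (2.47 to 9.21) in PBS. Lpl had 1.41 (0.682 to 2.70) against 8.91 (3.59 to 26.5), and the calcium channel gene Cacna1d 1.79 (1.07 to 2.90) against 0.221 (0.144 to 0.326). Antiviral transcripts were common with and without the set: among PBS cells with it, 90.6% had at least 2 UMIs of 5 antiviral genes, against 83.5% of the others, and in AKK the shares were 35.3% and 48.9%.

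Genes of tissue residence, lipid handling and lysosomes were lower in AKK for most members of each list, while those of dead-cell uptake were not. The resident and Kupffer list had 6 higher and 11 lower of 17 measured (median -0.36), the lipid-associated list 3 higher and 16 lower of 19 measured (median -0.25) and the lysosome list 14 higher and 22 lower of 36 measured (median -0.16). With Krt18 allowed these medians were -0.00455, -0.12 and 0.22. Apoe stood at 3181 CPM in AKK and 5416 in PBS cells, a ratio of 0.587 (0.571 to 0.604). Igf1 was at 31.7 and 107 (ratio 0.298, 0.226 to 0.387), with a log2 ratio of -0.64 in place of -1.60 with Krt18 allowed. Selenop was at 99.5 and 225 (ratio 0.443, 0.379 to 0.516) and Mertk at 206 and 366 (ratio 0.562, 0.504 to 0.627). The protease genes Ctsb (0.690) and Ctsd (0.736) and the lipid exporter Abca1 (0.657) had ratios below 1. Trem2, a lipid receptor gene, and Spp1, the osteopontin gene, were near level (66.3 and 78.4, 423 and 443 CPM), and the lipase gene Lpl was higher (114 and 56.9). The heme oxygenase gene Hmox1 was higher as well (270.5 and 197) in an iron and heme list with 5 higher and 11 lower of 16 measured (median -0.21). In the efferocytosis list 11 were higher and 7 lower of 18 (median 0.08). Cd5l, Gpnmb and Apoc1 had 1, 6 and 2 UMIs in AKK cells against 70, 93 and 151 in PBS cells, where 1 cell held 60%, 23.7% and 23.8%. The log2 ratios of Apoc1 and Cd5l were 0.29 and 0.01 without the neutrophil-gate cells, and that of Apoe was 0.06 and of Mertk 0.09 with barcodes carrying other lineages' UMIs left out.

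Complement genes outside the rule were mixed. C3 was at 62.1 CPM in AKK and 44.1 in PBS cells and Cfb at 119 and 93, both higher, while the receptor genes C3ar1 (194 and 249.5) and C5ar1 (157 and 206) were lower. The list had 3 higher and 7 lower of 10 measured, the 3 C1q genes among them (median -0.22), and its median was 0.22 with Krt18 allowed. Fc receptor genes had 4 higher and 3 lower of 7 measured (median 0.03), with Fcgr1 at 135 and 129 CPM and the inhibitory Fcgr2b at 594 and 639.

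Genes of NF-kB and Toll-like receptor signalling were lower for 20 of 29 members, with 16 intervals wholly below 1 (12.3% of all genes had one) and a median of -0.25. With Krt18 allowed that median was 0.03. Of the 29 members, 13 in AKK and 15 in PBS stood above 2 times the T cell level. The feedback inhibitor Nfkbia was at 1292 and 2347 CPM and Tnfaip3, which encodes A20, at 502 and 871. The subunit gene Nfkb1 was at 986 and 1576, whereas Rel was at 669 and 577. Of the receptors, Tlr7, which senses single-stranded RNA, was at 19.9 and 55.8, and Tlr2 and Tlr4 were level (101 and 99.1, 105 and 96.2). Peli1, a ubiquitin ligase gene of this pathway, was at 237 and 786, but T cells held 766 and 896.

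Co-stimulatory and checkpoint genes had 10 higher and 13 lower of 23 measured (median -0.09, and 0.22 with Krt18 allowed). Cd86, a ligand of CD28, was at 923 CPM in AKK and 1347 in PBS cells, Tnfsf9, the 4-1BB ligand gene, at 23.2 and 92.7 (ratio 0.25, 0.182 to 0.338), and Cd80 was level at 308 and 294. The PD-1 ligands thus lay on opposite sides, with Cd274 at a ratio of 0.667 and Pdcd1lg2 at 2.36. Over all settings run, the log2 ratio lay between -0.67 and -0.10 for Cd274 and between 0.72 and 1.58 for Pdcd1lg2. For Cd86 it lay between -0.64 and -0.02. Chemokine and cytokine receptor genes had 18 higher and 13 lower of 31 measured (median 0.06). The decoy receptor gene Il1r2 was at 1493 and 1042 CPM, Il1r1 at 7.58 and 35.6 and the fractalkine receptor Cx3cr1 at 72.9 and 145. Il21r was higher (99.9 and 33.2), below its 216 and 249.7 in T cells.

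Matrix genes were lower in AKK for most members. The matrix list had 8 higher and 16 lower of 24 measured, 4 of them past 2-fold lower and 0 past 2-fold higher, and 13 intervals wholly below 1 (median -0.19). Its abundant members differed less than 2-fold, with the macrophage elastase gene Mmp12 at 2998 and 2592 CPM, the collagenase gene Mmp13 at 921 and 1337 and fibronectin, Fn1, at 1398 and 1189 (log2 ratio -0.05 without the neutrophil-gate cells). The angiogenesis list had 6 higher and 10 lower of 16 measured (median -0.06), with Vegfa at 389 and 468. Hypoxia and glycolysis genes had 12 higher and 13 lower of 25 measured (median -0.02). Of the amino acid and NAD enzymes (median -0.09), the arginine transporter Slc7a2 was at 448 and 907 CPM, the ectoenzyme Cd38 at 173 and 307, the itaconate synthase gene Acod1 at 146 and 252 and Ass1, of arginine synthesis, at 62.1 and 25.8. Macrophage transcription factor genes had 13 higher and 17 lower of 30 measured (median -0.02, and 0.31 with Krt18 allowed), with Zeb2 among those farthest below, at 2199 and 3958 CPM (ratio 0.556, 0.537 to 0.574).

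Monocyte genes were split, with 9 higher and 10 lower of 19 measured (median -0.03, and 0.35 with Krt18 allowed). Ly6c2 was at 71.1 CPM in AKK and 32.4 in PBS cells (ratio 2.19, 1.71 to 2.81) and Ccr2, the monocyte chemokine receptor, at 206 and 130.2 (ratio 1.58, 1.38 to 1.80), but T cells held 229.9 and 148 CPM of Ly6c2 and 169.8 and 66.9 of Ccr2. Ly6c2 was thus below its level in T cells in both libraries. The 9 monocyte markers summed to 1147 CPM in AKK and 1261 in PBS, against 7049 and 7928 in classical monocytes (at least 3 Ly6c2 and 1 Ccr2 UMIs, at most 1 C1q UMI).

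Cell cycle genes were higher for 23 of 26 members (median 0.43), but with Krt18 allowed the median was -0.22 and only 1 member in AKK and 2 in PBS stood above 2 times the T cell level. Mki67 was at 42.6 and 69.9 CPM and Top2a at 51.6 and 34.0. Genes known to respond to tissue dissociation were lower for 17 of 21 members, with 15 intervals wholly below 1 and a median of -0.30. Of these 21 members, 8 in AKK and 11 in PBS stood above 2 times the T cell level. The heat shock genes Hspa1a (17.1 and 175 CPM) and Hspa1b (14.2 and 179) and the immediate early gene Egr1 (329 and 829.6, ratio 0.397, 0.365 to 0.431) were farthest below. The near-identical copies Hspa1a and Hspa1b share reads, so neither value is certain, and their log2 ratios were -0.82 and -1.0 with Krt18 allowed. The stress list lay on the same side as the cytokine, chemokine and NF-kB lists, and its part in them was not tested. The glucocorticoid list had 3 higher and 10 lower of 13 measured (median -0.27), with Fkbp5 at 21.3 and 57.4. Of its 13 members, 4 in AKK and 5 in PBS stood above 2 times the T cell level.

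Other genes named by size of their difference were mostly at low levels. Higher in AKK were Apol7c (33.2 and 3.45 CPM, ratio 9.60, 5.27 to 18.9), an apolipoprotein L family gene, Cbfa2t3, a transcriptional corepressor (65.4 and 17.3, ratio 3.78, 2.80 to 5.16), and Soga1 (129.8 and 38, ratio 3.42, 2.78 to 4.21). The phospholipid transfer protein gene Pltp was at 84.8 and 29.2, with a log2 ratio of -0.04 with gates on thinned UMIs. Creld2, Tppp3, Efcab11, Tmx4 and Edn1, the endothelin 1 gene, had ratios from 2.74 to 4.99. With gates on thinned UMIs, the log2 ratios of Soga1, Tppp3, Creld2 and Edn1 were 0.50, 0.68, 0.31 and 0.51, and those of Apol7c and Cbfa2t3 1.02 and 1.52. Without the neutrophil-gate cells Tmx4 was at 0.22 and Efcab11 at 0.56. Hspb1 met the rule only through 1 AKK cell with 98.1% of its UMIs there, and its ratio was 0.178 without it. Lower in AKK were Heatr9 (3.79 and 55.0, ratio 0.0689, 0.0294 to 0.138), the leptin receptor gene Lepr (3.79 and 37.2, log2 ratio -0.28 without the neutrophil-gate cells) and the serum amyloid gene Saa3 (32.7 and 203, 1 cell with 61.6% of the PBS UMIs, log2 ratio -0.17 with Krt18 allowed). Frem2 had no UMI in AKK cells, which allows up to 1.42 CPM (3 counts), but 1 cell held 96.3% of its PBS UMIs.

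Per cell, the antiviral and MHC class II differences showed in the medians over cells. In cells thinned to 5000 UMIs, the sum of Rsad2, Ifih1, Oasl1, Isg15 and Ifit2 had a median of 1 UMI in AKK and 8 in PBS cells, and at least 1 UMI was found in 65.8% of AKK cells (56.2 to 74.5) and 91.4% of PBS cells (85.9 to 95.2). The sum of H2-Aa, H2-Ab1, H2-Eb1 and Cd74 had medians of 75 and 49.5 UMIs, with upper quartiles of 109.5 and 82.8. Both libraries overlapped widely in the class II sum. The antiviral UMIs were more concentrated, with 49.5% in the top 11 AKK cells and 37.0% in the top 16 PBS cells. For the class II sum these shares were 21.3% and 23.5%. These sets too were put together after their values were seen.

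**Figure D5:**
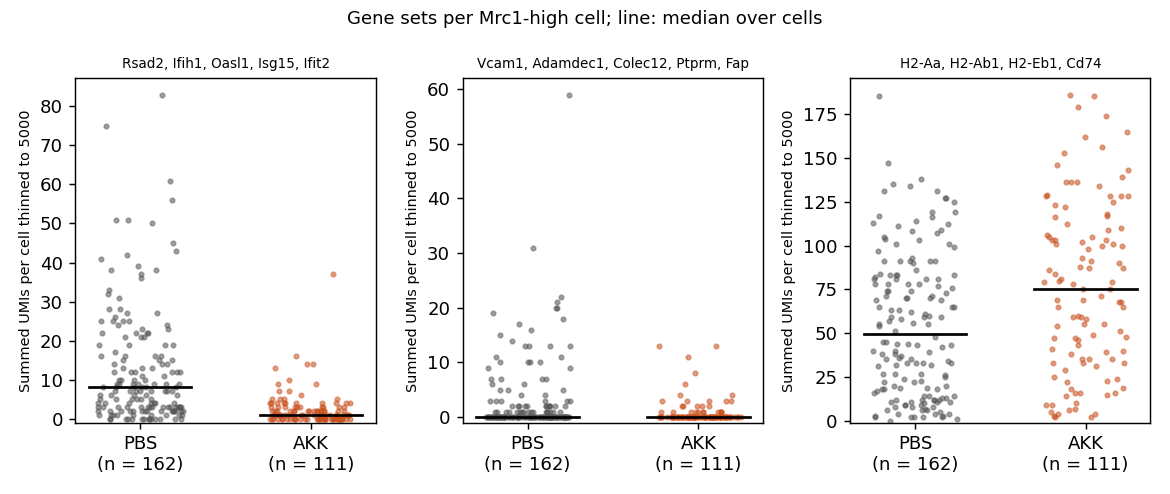
Summed UMIs per Mrc1-high macrophage, each cell thinned to 5000 UMIs (vertical axis), for 162 PBS and 111 AKK cells; points are cells, spread sideways at random, and lines are medians over cells. The antiviral medians are 8 and 1, the Vcam1 set is at 0 in most cells of both libraries, and the MHC class II medians are 49.5 and 75.

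Some of these differences were present across the range of Mrc1 and some were not. In cells with 3 to 5, 6 to 15, and 16 or more Mrc1 UMIs, Rsad2 was at 59.9, 33.6 and 66.5 CPM in AKK and at 687, 658 and 490.4 in PBS cells. H2-Aa was at 3009, 3166 and 3740.4 against 2346, 2341 and 2079.9, and Ccl4 at 1016, 792 and 770.2 against 2732, 4121 and 2790.5. In each of the 3 bins Rsad2 and Ccl4 were thus lower and H2-Aa higher in AKK. Apoe was highest in the top bin of both libraries (3793 and 6590.1 CPM) and lowest in the bottom bin (1930.1 and 2883), and lower in AKK in each. Mertk was lower in AKK in the upper bins but not among cells with 3 to 5 Mrc1 UMIs (139 and 130.01 CPM). Colec12 was at 171 CPM in the top bin of PBS and at most 13 in every other bin, and Plac8 was lower in AKK in the middle bin (158 and 269) and higher in the others. Vcam1 was at 85.9 CPM in AKK and 347 in PBS cells with 16 or more Mrc1 UMIs, and at 15 and 135 in those with 3 to 5.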

How the data were processed

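Single-cell RNA sequencing gave 1 matrix per group, with 5088 PBS and 6610 AKK barcodes, 64731604 and 74495998 UMIs, and medians of 6558.5 and 6488 UMIs per barcode. The values are the counts of UMIs per gene and barcode that the authors deposited, filtered and not normalized. Per the file headers they were written by Cell Ranger 7.1.0, while the submitters' processing notes name Cell Ranger 5.0.1 and mm10; neither gives the annotation or the intron setting. The matrices list 32285 genes.

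Populations were gated on raw UMIs. C1q macrophages had at least 5 C1q UMIs and none of Cd3e, Cd79a and Krt18, and were split into Mrc1-high (3 or more Mrc1 UMIs), Mrc1-low (1 or 2) and Mrc1-negative (0). T cells had at least 2 Cd3e UMIs and none of Cd79a and Krt18. The neutrophil gate asked for 20 UMIs of S100a8 and S100a9 and 1 of Csf3r. UMIs were summed over the cells of a gate and divided by their total (CPM). Ratios have exact conditional binomial 95% intervals, levels Poisson, shares Clopper-Pearson and differences of shares Newcombe intervals. A gene was measured with at least 20 UMIs over both libraries and counted as past 2-fold on log2(CPM + 5). Thinning drew 5000 UMIs from each barcode at random. With 1 library per group there was no test between groups.

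The members and all 27 gene lists and 18 marker lists were chosen with earlier results of these data known. Genes named by size are the 12 highest and 12 lowest by the bound of the interval nearest to 1, among genes with at least 50 UMIs and above 2 times the T cell level and 0.2 times the neutrophil level. Named also are up to 3 genes at each end of a list, list genes of at least 500 CPM, the 10 genes highest and 10 lowest in Mrc1-high against Mrc1-negative cells, and genes a comparison turns on. Promoter entries existed for 59 of the 82 genes looked up, and gene positions for 666 of 666. Alternatives were other gates, thresholds, doublet scores, thinning, scaling, pseudocounts and cell weights. The calculations were tested on simulated data. Python 3.11.15, numpy 2.4.6, scipy 1.17.1, pandas 2.3.3, scanpy 1.11.5 and matplotlib 3.10.9 were used.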

Additional observations from a re-analysis of the deposited data

Results flagged for a closer look

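The values below differed in direction between the Mrc1-high and the Mrc1-negative C1q macrophages, with intervals of the ratio on opposite sides of 1 (for lists, medians of opposite sign). Each gate has 1 library per group, so the difference between the gates was not tested. Of 8665 genes measured in both gates, 204 (2.35%) had such opposite intervals, and of 72 genes of the text 12. The genes of the text were named in part by the size of their difference and include the C1q genes of the rule. The count of 12 is therefore not comparable with the share over all genes.

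Among antiviral genes the type I interferon list had a median log2 ratio, AKK over PBS, of -0.30 in Mrc1-high and 0.34 in Mrc1-negative cells. Ifit1 had -1.67 and 1.06, and Ifit2 -1.39 and 0.89. In Mrc1-negative cells Ifit1 stood at 67.4 and 29.8 CPM in AKK and PBS.

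The complement list had a median of -0.22 in Mrc1-high and 0.30 in Mrc1-negative cells, which is a description only, since the C1q genes are 3 of its 10 members. C1qa had -0.14 and 0.66, C1qb -0.26 and 0.17 and C1qc -0.18 and 0.68, and the rule of both gates used these genes, so nothing is read from them.

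The monocyte list did not differ in sign between the gates, but 2 of its genes did. Ly6c2 had 1.02 in Mrc1-high and -0.49 in Mrc1-negative cells, and Plac8 0.68 and -0.50, with Ly6c2 below its level in T cells in Mrc1-high cells of both libraries. The chemokine gene Pf4 had 0.83 and -1.58, with 115 and 354 CPM in Mrc1-negative cells of AKK and PBS.

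Of the remaining genes, the metalloprotease gene Adamdec1 had -1.81 and 1.03, the immediate early gene Egr1 -1.32 and 0.20, the serum amyloid gene Saa3 -2.47 and 0.54, and Tmx4 1.37 and -0.50.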

How the results depend on the processing

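With 1 library per group nothing here separates treatment from mouse, sort or library, and depth limits what can be read from genes of a few UMIs and from the 17 AKK and 53 PBS cells with the Vcam1 set. No paired analysis was possible because each group is 1 library and the labels give no replicate numbers. Over 16 settings the type I interferon median lay between -0.52 and -0.16 and the MHC class II median between 0.45 and 0.96. Over all settings run, the log2 ratio of Rsad2 lay between -3.58 and -2.25, of Vcam1 between -2.50 and -1.46, of Cxcl9 between 1.14 and 2.69 and of Mgl2 between 1.42 and 1.96. Of the values of comparisons over all alternatives 138 held, 30 moved and 2 reversed, and of those of single genes and other lists 1243 held, 437 moved and 38 reversed. The cause of each change below was not tested.

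With at least 10 C1q UMIs the chemokine median was -0.56. With gates on thinned UMIs, 191 genes were past 2-fold higher, the MHC class II median was 0.50, the chemokine median -0.58, Ccl17 -0.92, Pltp -0.038 and Hspb1 -1.66. There 38 genes were higher and 16 lower in Mrc1-high than Mrc1-negative cells of both libraries, with PBS log2 ratios of 0.41 for Ltbp1 and 0.72 for Efnb2. With barcodes of 2 or more UMIs of other lineages left out (45 AKK and 51 PBS members) the share differed by -3.48 points and 335 genes were higher. The medians were 0.41 for complement, 0.57 for interferon-gamma, 0.45 for MHC class II and -0.46 for NF-kB. The log2 ratios were 0.48 for C1qa, 0.56 for C1qb, 0.41 for C1qc, -0.44 for Ccl17, 0.91 for Adamdec1, 0.67 for Apoc1, -0.86 for Tmx4, -0.25 for Efcab11, -0.41 for Hspb1, 0.062 for Apoe, 0.087 for Mertk, -0.070 for Ccr2 and -0.018 for Plac8. Against Mrc1-negative cells, Slc40a1 was at -0.42 in AKK, and Prg4 and Selp at 0.72, Efnb2 at 0.21 and Plcb1 at 0.050 in PBS. With each cell weighted alike the chemokine median was -0.23 and Il1b 0.0013. Median ratio scaling gave 0.50 for MHC class II and -0.46 for chemokines. With at least 100 UMIs, 51 genes were higher and 125 lower in AKK, and 37 higher and 9 lower in Mrc1-high cells of both libraries. With CPM + 1 the counts were 324, 412, 112 and 58.

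The next alternatives were chosen after seeing the data. With Krt18 allowed (144 AKK and 293 PBS members) the share differed by -3.85 points and 544 genes were lower. The medians were 0.22 for complement, 0.96 for MHC class II, 0.027 for NF-kB, -0.25 for cytokines, 0.045 for chemokines and -0.22 for cell cycle, and the log2 ratios 0.32, 0.19 and 0.27 for C1qa, C1qb and C1qc and 0.25 for Il1b. Without the neutrophil-gate members (103 and 122 left) the share differed by -0.94 points, 176 genes were higher, the chemokine median was -0.50, and C1qa was at 0.19, C1qc at 0.15, Apoc1 at 0.29, Cd5l at 0.012, Hspb1 at -1.14 and Fn1 at -0.046. Without the top cell of each gene 74 genes were higher and Hspb1 was at -0.48.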
